A study of Homo sapiens with 14 samples.

Results

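The human HOX genes are the 39 protein-coding genes of the HOXA, HOXB, HOXC and HOXD clusters, and they were read out here in 293 Flip-In T-REx cells, which derive from human embryonic kidney and carry 1 site for the insertion of a transgene. Members were taken by symbol, antisense RNAs of the clusters were left out, and all 39 were found among 22410 genes. Polyadenylated RNA was sequenced in 14 libraries, 2 for each of 7 groups. The control line (ctrl) held an empty vector. The lines SA1 and SA2 held a SNAP-ADAR1 or a SNAP-ADAR2 gene, in which the SNAP tag is fused to the deaminase of ADAR or of ADARB1, and SA1Q and SA2Q held the same fusions in which a glutamate of the deaminase was exchanged for glutamine, a change known to raise its activity. SA1Q and SA2Q were sequenced without and with a guide RNA (SA1Q+gRNA, SA2Q+gRNA), SA1 and SA2 with it alone (SA1+gRNA, SA2+gRNA), and ctrl without it. The study was designed to find off-target editing. The sources used here do not give the target of the guide, any induction of the transgene, or whether a line was a clone or a pool. In SA1+gRNA and SA2+gRNA against ctrl, the line and the guide therefore cannot be told apart.

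HOX genes encode homeodomain transcription factors that give cells of the embryo their place along the head to tail axis. Their order in a cluster follows the order of their domains along that axis, so that low numbers stand for anterior and high numbers for posterior positions, and genes of 1 number in different clusters are paralogs. Polycomb complexes keep HOX genes silent and Trithorax complexes keep them active, so a cell line tends to carry a lasting HOX pattern. In the embryonic kidney the HOX10 and HOX11 paralogs act in the stroma and in the mesenchyme that induces the ureteric bud. PBX and MEIS proteins bind DNA together with HOX proteins.

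The pattern was broad. Of 39 genes, 35 were expressed at a mean of at least 1 FPKM, which here is the TMM-scaled count per M fragments of the library and per kilobase of transcript. HOXD1 (0.637 FPKM) and HOXD12 (0.429 FPKM) were low, between 0.1 and 1 FPKM. HOXB1 (0.0124 FPKM) and HOXC12 (0.0333 FPKM) were near zero. Around the limit of 1 FPKM, HOXA2 at 1.69 FPKM was the nearest gene above and HOXD1 the nearest below. In bulk RNA, fewer cells that express a gene and less of its RNA per cell cannot be told apart. The HOX transcripts summed to 542 ± 36.6 FPKM (SD, n = 14). Of that sum the HOXA cluster held 39.6% (11 genes), HOXB 28.3% (10 genes), HOXC 16.4% (9 genes) and HOXD 15.7% (9 genes). The paralogs of group 9 held 25.1% of the summed FPKM, those of group 10 13.9% and those of group 6 10.9%, whereas group 12 held 0.0846%. The summed level did not run in 1 direction along the clusters. Groups 13 (9.96%) and 11 (9.22%) held more than groups 2 (6.04%) and 4 (5.25%), and these more than groups 7 (3.85%) and 8 (3.01%). The sums run over unequal numbers of genes. Groups 4, 9 and 13 have 4 genes. Groups 6, 8, 10 and 11 have 3, and groups 2, 7 and 12 have 2. The shares therefore do not order the level per gene. Among all 12528 tested genes at or above 1 FPKM the median level was 10.5 FPKM, and 16 HOX genes lay above it.

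**Figure D1:**
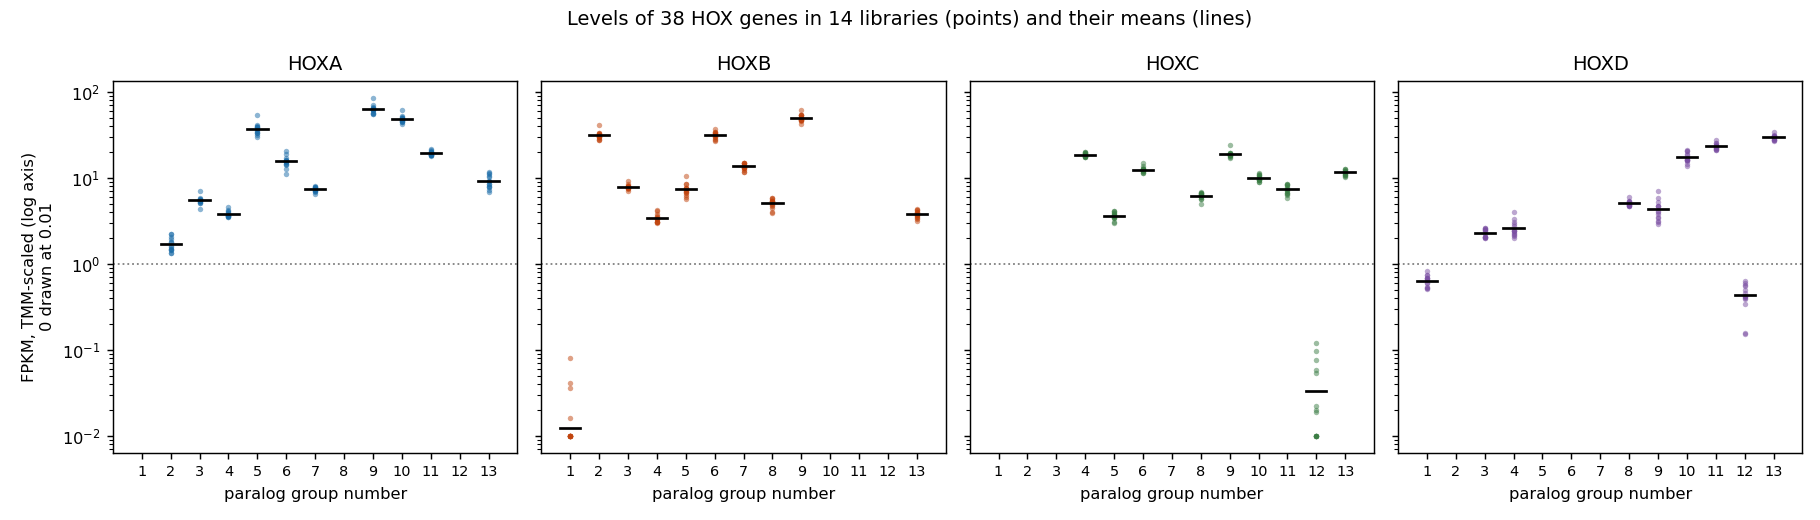
Level of 38 of the 39 HOX genes (FPKM, TMM-scaled, log axis; a 0 is drawn at 0.01) against its paralog group number, by cluster; points are the 14 libraries, black lines their means and the dotted line 1 FPKM. HOXA9, HOXB9 and HOXA10 stand highest, and HOXB1, HOXC12, HOXD1 and HOXD12 lie under the line.

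Before the values by library, some features of the libraries bear on them. The libraries held between 43.0 and 130.1 M fragments, and the HOX genes together took 46322 to 138468 fragments of a library. ADAR and ADARB1 followed the labels, with 1090 to 1600 CPM of ADAR in the SA1 and SA1Q lines against 297 to 340 elsewhere, and 940 to 1160 of ADARB1 in the SA2 and SA2Q lines against 25.5 to 37.2. Counts of the transgene and of the endogenous gene cannot be told apart. Replicate 1 of ctrl and replicate 1 of SA1Q+gRNA stood apart on the first principal component of the tested genes (-17.1 and -24.4, with the other 12 between -3.38 and 11.8; 26.8% of the variance). In SA1+gRNA replicate 2 all counts above 0 were even numbers (100%, against 47.7% to 48.7% elsewhere), and the cause was not tested. Its total was 130.1 M, and its counts were halved in an alternative. The epithelial keratin gene KRT18 (78.1 to 100 FPKM), the vimentin gene VIM (448 to 602 FPKM) and the neurofilament gene NEFL (26.3 to 53.1 FPKM) were expressed in every library, as known for this line, while NEFM, PAX2 and CDH1 lay at 0.368, 0.747 and 0.68 FPKM on average. Of 11 fibroblast markers 1 was expressed (COL1A1), and their sum was 1.32 to 2.05 FPKM. Of 5 endothelial markers 0 were expressed, and their sum was 0.233 to 0.497 FPKM. Blood cell markers summed to 38.6 to 56.2 FPKM, nearly all from LCP1 and CD68, while PTPRC and CD3E were at or near 0.

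The HOXA genes described here lie on chromosome 7 of hg19 from 27139973 (HOXA2) to 27239725 (HOXA13), on the minus strand. All 11 genes of the cluster were expressed. Values below are FPKM of replicate 1 and replicate 2. HOXA9, a regulator of blood stem cells and of leukaemia, was the most abundant HOX transcript in 14 of 14 libraries, at 60.8 and 54.8 in ctrl, 62.4 and 70.2 in SA1+gRNA, 55.0 and 67.0 in SA2+gRNA, 62.8 and 60.9 in SA1Q, 84.6 and 61.2 in SA1Q+gRNA, 56.0 and 56.4 in SA2Q and 64.4 and 64.9 in SA2Q+gRNA. The SA1Q+gRNA replicate 1 value stood above the rest, and the other 13 libraries lay within 54.8 to 70.2. HOXA10, which acts in the uterus and the kidney stroma, was at 45.0 and 46.3 in ctrl, 49.3 and 52.2 in SA1+gRNA, 46.6 and 51.2 in SA2+gRNA, 47.0 and 45.5 in SA1Q, 61.3 and 49.7 in SA1Q+gRNA, 44.6 and 41.6 in SA2Q and 49.6 and 46.1 in SA2Q+gRNA. It shared its highest library with HOXA9, and its order against HOXB9 was unsettled, with HOXB9 higher in 8 of 14 libraries. HOXA5, needed for lung development, was at 35.2 and 33.0 in ctrl, 33.8 and 40.7 in SA1+gRNA, 29.9 and 39.2 in SA2+gRNA, 39.6 and 36.8 in SA1Q, 53.1 and 38.9 in SA1Q+gRNA, 33.3 and 31.6 in SA2Q and 36.4 and 38.4 in SA2Q+gRNA. Its pairs overlapped between most groups, and it ranked below HOXA10 in 14 of 14 libraries. HOXA11, a gene of the forearm and the kidney mesenchyme, was at 18.2 and 18.6 in ctrl, 20.1 and 20.8 in SA1+gRNA, 20.0 and 19.9 in SA2+gRNA, 18.1 and 18.4 in SA1Q, 21.5 and 18.6 in SA1Q+gRNA, 18.5 and 19.1 in SA2Q and 19.6 and 20.5 in SA2Q+gRNA. It was among the steadiest, with a ratio of highest to lowest library of 1.18.

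HOXA6, a gene of the trunk, was at 11.1 and 16.2 in ctrl, 15.4 and 15.2 in SA1+gRNA, 12.6 and 15.8 in SA2+gRNA, 16.8 and 16.2 in SA1Q, 20.2 and 18.9 in SA1Q+gRNA, 14.4 and 14.1 in SA2Q and 14.6 and 15.7 in SA2Q+gRNA. The 2 ctrl values lay far apart, and the 4 values of the SA1Q line (16.2 to 20.2 FPKM) did not overlap those of the SA2Q line (14.1 to 15.7 FPKM). HOXA13, a gene of the hand, foot and genital tract, was at 6.79 and 11.1 in ctrl, 10.5 and 11.4 in SA1+gRNA, 11.6 and 10.2 in SA2+gRNA, 9.12 and 8.51 in SA1Q, 7.84 and 9.25 in SA1Q+gRNA, 8.51 and 7.2 in SA2Q and 7.87 and 8.07 in SA2Q+gRNA. The ctrl pair spanned nearly its whole range, from the lowest library to 11.1 FPKM. HOXA7, also of the trunk, was at 7.8 and 7.15 in ctrl, 6.78 and 7.43 in SA1+gRNA, 7.96 and 7.68 in SA2+gRNA, 6.55 and 6.95 in SA1Q, 7.9 and 6.92 in SA1Q+gRNA, 7.47 and 7.2 in SA2Q and 7.43 and 7.75 in SA2Q+gRNA. Its libraries kept within a ratio of 1.21.

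HOXA3, which patterns the pharyngeal arches and the thymus, was at 5.49 and 5.46 in ctrl, 4.37 and 5.09 in SA1+gRNA, 5.17 and 5.35 in SA2+gRNA, 5.31 and 5.81 in SA1Q, 7.09 and 5.42 in SA1Q+gRNA, 5.69 and 5.68 in SA2Q and 5.15 and 5.29 in SA2Q+gRNA. HOXA4 and HOXA2 were lower, at means of 3.79 and 1.69 FPKM against 5.45 for HOXA3. HOXA4, of the cervical region, was at 4.51 and 4.04 in ctrl, 3.45 and 4.05 in SA1+gRNA, 4.22 and 3.57 in SA2+gRNA, 3.7 and 3.72 in SA1Q, 3.92 and 3.55 in SA1Q+gRNA, 3.65 and 3.45 in SA2Q and 3.59 and 3.58 in SA2Q+gRNA. Its highest library was ctrl replicate 1. HOXA2, a selector gene of the second pharyngeal arch, was at 1.32 and 1.93 in ctrl, 1.45 and 1.48 in SA1+gRNA, 1.48 and 1.43 in SA2+gRNA, 2.2 and 1.8 in SA1Q, 2.23 and 2.04 in SA1Q+gRNA, 1.62 and 1.32 in SA2Q and 1.8 and 1.58 in SA2Q+gRNA. It was the lowest of the expressed HOX genes, on 98 to 318 fragments a library, and its ctrl values were 1.32 and 1.93 FPKM. The 318 came from the library with even counts, and the other libraries held at most 221.

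The HOXB genes lie on chromosome 17 of hg19 from 46606807 (HOXB1) to 46806111 (HOXB13), on the minus strand. HOXB9, a posterior trunk gene, was at 51.2 and 41.9 in ctrl, 47.1 and 46.7 in SA1+gRNA, 53.7 and 50.2 in SA2+gRNA, 53.8 and 53.8 in SA1Q, 60.6 and 53.6 in SA1Q+gRNA, 46.4 and 47.4 in SA2Q and 45.3 and 48.1 in SA2Q+gRNA. The 4 libraries of the SA1Q line (53.6 to 60.6 FPKM) lay above the 4 of the SA2Q line (45.3 to 48.1 FPKM). HOXB6, of the trunk, was at 34.2 and 27.5 in ctrl, 26.5 and 29.9 in SA1+gRNA, 29.9 and 31.4 in SA2+gRNA, 28.4 and 31.2 in SA1Q, 36.9 and 31.3 in SA1Q+gRNA, 31.9 and 32.9 in SA2Q and 33.0 and 34.3 in SA2Q+gRNA. HOXB2, a hindbrain gene, was at 28.3 and 27.8 in ctrl, 27.1 and 29.8 in SA1+gRNA, 32.1 and 33.0 in SA2+gRNA, 29.5 and 30.9 in SA1Q, 41.1 and 33.5 in SA1Q+gRNA, 30.5 and 29.5 in SA2Q and 31.1 and 31.8 in SA2Q+gRNA. HOXB6 and HOXB2 could not be ordered, since each was higher in 7 of 14 libraries. HOXB7, of the trunk, was at 14.7 and 12.8 in ctrl, 11.8 and 12.4 in SA1+gRNA, 14.2 and 14.8 in SA2+gRNA, 13.1 and 11.6 in SA1Q, 15.0 and 13.2 in SA1Q+gRNA, 13.2 and 14.8 in SA2Q and 12.8 and 13.9 in SA2Q+gRNA. Its ratio of highest to lowest library was 1.3.

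HOXB3, a hindbrain and pharyngeal gene, was at 7.78 and 8.46 in ctrl, 6.95 and 7.52 in SA1+gRNA, 7.64 and 7.64 in SA2+gRNA, 7.91 and 7.36 in SA1Q, 9.17 and 7.76 in SA1Q+gRNA, 7.91 and 8.0 in SA2Q and 7.93 and 7.78 in SA2Q+gRNA. HOXB5, a gene of the enteric neural crest, was at 5.99 and 6.32 in ctrl, 5.68 and 6.83 in SA1+gRNA, 7.18 and 7.51 in SA2+gRNA, 8.43 and 7.61 in SA1Q, 10.4 and 8.39 in SA1Q+gRNA, 6.94 and 6.71 in SA2Q and 6.81 and 7.59 in SA2Q+gRNA. The SA1Q line (7.61 to 10.4 FPKM) did not overlap the SA2Q line (6.71 to 7.59 FPKM), and the ctrl pair was lower than both at 5.99 and 6.32 FPKM. HOXB8, which can hold myeloid progenitors in culture, was at 3.94 and 4.46 in ctrl, 4.02 and 5.35 in SA1+gRNA, 5.84 and 5.63 in SA2+gRNA, 4.73 and 4.84 in SA1Q, 5.81 and 5.09 in SA1Q+gRNA, 5.32 and 5.4 in SA2Q and 4.97 and 5.39 in SA2Q+gRNA. Its ctrl values were among the 3 lowest of the 14. HOXB13, a gene of the prostate and tail bud, was at 4.31 and 4.02 in ctrl, 3.74 and 3.7 in SA1+gRNA, 4.26 and 4.23 in SA2+gRNA, 3.45 and 3.12 in SA1Q, 4.02 and 3.31 in SA1Q+gRNA, 3.9 and 3.73 in SA2Q and 3.42 and 3.6 in SA2Q+gRNA. HOXB4, known for expanding blood stem cells, was at 4.09 and 3.3 in ctrl, 3.02 and 4.18 in SA1+gRNA, 3.37 and 3.32 in SA2+gRNA, 3.31 and 3.06 in SA1Q, 3.62 and 3.05 in SA1Q+gRNA, 3.05 and 3.5 in SA2Q and 3.01 and 3.83 in SA2Q+gRNA. Its pairs were as wide as its groups, with 3.02 and 4.18 FPKM in SA1+gRNA alone.

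HOXB1, which sets up a segment of the hindbrain, was the lowest of the 39 HOX genes. It had 0 fragments in 10 of 14 libraries and at most 5 (SA1Q+gRNA replicate 2). Its neighbour HOXB2 gave at least 1895 fragments in every library. The RefSeq window of 250 bases before the HOXB1 start (GRCh38.p14, chr17:48531012-48531261, minus strand) is shown because it is the window of the lowest gene that the promoter table holds. CG pairs are in capitals.
HOXB1: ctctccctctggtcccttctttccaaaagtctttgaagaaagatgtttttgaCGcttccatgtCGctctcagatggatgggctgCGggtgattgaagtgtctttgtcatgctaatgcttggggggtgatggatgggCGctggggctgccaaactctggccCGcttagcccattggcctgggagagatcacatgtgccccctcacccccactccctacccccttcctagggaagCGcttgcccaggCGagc
It held 7 CG pairs, a ratio of observed to random expectation of 0.343. The window of HOXA9, the highest gene, follows (GRCh38.p14, chr7:27165538-27165787, minus strand).
HOXA9: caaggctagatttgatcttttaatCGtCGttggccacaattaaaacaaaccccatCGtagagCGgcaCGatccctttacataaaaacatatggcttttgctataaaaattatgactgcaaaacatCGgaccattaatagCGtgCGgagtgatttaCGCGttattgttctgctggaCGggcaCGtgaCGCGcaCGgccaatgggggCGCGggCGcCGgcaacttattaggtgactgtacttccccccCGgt
It held 20 CG pairs, a ratio of 1.34, and the letters TATAAA. Over the 27 windows of the 20 HOX genes in the table, the CG count ran from 0 to 40 with a median of 19, against a median of 11 over all 35116 windows. TATAAA, searched on both strands, was in 5 of the 27 and in 10.7% of all windows. CCAAT was in 18 of the 27, the HOXB1 window included, and in 32.0% of all windows. The 27 are not all windows of separate genes, since HOXC4 and HOXC5 share 1 and HOXA3 has several. Whether the CG count goes with the level was not tested. The window of HOXD1, at 0.637 FPKM, held 31 CG pairs, and that of HOXD4, at 2.61 FPKM, held 4.

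The HOXC genes lie on chromosome 12 of hg19 from 54332576 (HOXC13) to 54449814 (HOXC4), on the plus strand. HOXC9, a gene of thoracic motor neurons, was at 18.5 and 18.1 in ctrl, 17.0 and 18.6 in SA1+gRNA, 18.2 and 18.4 in SA2+gRNA, 18.8 and 17.5 in SA1Q, 24.0 and 19.3 in SA1Q+gRNA, 18.5 and 19.3 in SA2Q and 19.1 and 19.4 in SA2Q+gRNA. It was highest in SA1Q+gRNA replicate 1, and the other 13 libraries lay within 17.0 to 19.4 FPKM. HOXC4, which acts in B cells, was at 18.6 and 18.1 in ctrl, 17.5 and 17.4 in SA1+gRNA, 20.1 and 19.2 in SA2+gRNA, 19.7 and 18.9 in SA1Q, 19.6 and 19.6 in SA1Q+gRNA, 18.2 and 18.1 in SA2Q and 17.2 and 18.0 in SA2Q+gRNA. It varied least of the expressed HOX genes, with a coefficient of variation of 5.08% over 14 libraries. HOXC6, of the trunk, was at 12.6 and 12.0 in ctrl, 11.3 and 11.2 in SA1+gRNA, 13.8 and 12.7 in SA2+gRNA, 11.5 and 12.2 in SA1Q, 13.0 and 12.5 in SA1Q+gRNA, 12.4 and 14.7 in SA2Q and 12.1 and 12.4 in SA2Q+gRNA. HOXC5, of the neck region, was at 3.41 and 3.08 in ctrl, 3.72 and 3.86 in SA1+gRNA, 4.03 and 3.61 in SA2+gRNA, 3.52 and 2.97 in SA1Q, 4.11 and 3.76 in SA1Q+gRNA, 3.66 and 4.13 in SA2Q and 3.6 and 3.36 in SA2Q+gRNA. The HOXC4, HOXC5 and HOXC6 transcripts used share a 5′ start at 54410636, and for HOXC5 it was a non-coding transcript of the gene. Fragments of the shared first exon cannot be split between them, so these levels are uncertain. RefSeq gives HOXC4 and HOXC5 the same window before the start (GRCh38.p14, chr12:54016638-54016887, plus strand), shown here for that reason.
HOXC4 and HOXC5: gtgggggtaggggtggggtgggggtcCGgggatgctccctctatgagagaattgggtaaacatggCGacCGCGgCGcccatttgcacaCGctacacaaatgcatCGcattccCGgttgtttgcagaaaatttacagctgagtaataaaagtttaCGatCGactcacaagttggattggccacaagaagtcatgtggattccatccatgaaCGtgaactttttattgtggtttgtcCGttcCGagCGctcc
It held 14 CG pairs, a ratio of 0.888, with no TATAAA.

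HOXC13, a gene of hair and nails, was at 12.6 and 10.7 in ctrl, 10.6 and 11.6 in SA1+gRNA, 12.1 and 11.8 in SA2+gRNA, 10.8 and 10.9 in SA1Q, 12.6 and 10.2 in SA1Q+gRNA, 11.4 and 12.2 in SA2Q and 11.2 and 12.0 in SA2Q+gRNA. HOXC10, of lumbar motor neurons, was at 11.2 and 9.73 in ctrl, 10.8 and 9.03 in SA1+gRNA, 11.0 and 9.88 in SA2+gRNA, 8.84 and 9.47 in SA1Q, 10.1 and 9.5 in SA1Q+gRNA, 10.5 and 10.8 in SA2Q and 9.45 and 9.72 in SA2Q+gRNA. Both kept within a ratio of 1.27 from the lowest to the highest library. HOXC11, a paralog of the kidney gene HOXA11, was at 8.39 and 6.46 in ctrl, 6.29 and 7.19 in SA1+gRNA, 7.06 and 7.42 in SA2+gRNA, 6.65 and 7.39 in SA1Q, 6.69 and 5.86 in SA1Q+gRNA, 8.52 and 8.21 in SA2Q and 7.7 and 8.32 in SA2Q+gRNA. The SA1Q line (5.86 to 7.39 FPKM) lay under the SA2Q line (7.7 to 8.52 FPKM), and ctrl spanned 6.46 to 8.39 FPKM. HOXC8, of the brachial region, was at 4.95 and 6.28 in ctrl, 5.71 and 6.75 in SA1+gRNA, 5.95 and 6.58 in SA2+gRNA, 5.62 and 6.72 in SA1Q, 6.48 and 6.63 in SA1Q+gRNA, 6.51 and 5.99 in SA2Q and 6.23 and 6.23 in SA2Q+gRNA. Its lowest library was ctrl replicate 1. HOXC12 lay near zero between expressed neighbours, with 0 fragments in 6 of 14 libraries and at most 6, in the library with even counts, against at least 1174 for HOXC13 and 530 for HOXC11.

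The HOXD genes lie on chromosome 2 of hg19 from 176957532 (HOXD13) to 177055635 (HOXD1), on the plus strand. Levels stepped down from the posterior end, with HOXD12 and HOXD9 as exceptions. HOXD13, the gene of the digits, was at 28.4 and 30.5 in ctrl, 27.7 and 29.5 in SA1+gRNA, 26.4 and 27.5 in SA2+gRNA, 31.3 and 30.5 in SA1Q, 34.0 and 30.7 in SA1Q+gRNA, 29.2 and 27.3 in SA2Q and 29.8 and 30.5 in SA2Q+gRNA. HOXD11, of the forearm and the kidney mesenchyme, was at 25.0 and 25.0 in ctrl, 20.8 and 23.3 in SA1+gRNA, 20.9 and 21.3 in SA2+gRNA, 22.2 and 23.4 in SA1Q, 27.7 and 24.0 in SA1Q+gRNA, 23.0 and 21.8 in SA2Q and 22.4 and 23.9 in SA2Q+gRNA. HOXD13 was above HOXD11 in 14 of 14 libraries. HOXD12, between them, was at 0.499 and 0.396 in ctrl, 0.157 and 0.569 in SA1+gRNA, 0.555 and 0.419 in SA2+gRNA, 0.427 and 0.343 in SA1Q, 0.601 and 0.384 in SA1Q+gRNA, 0.154 and 0.459 in SA2Q and 0.412 and 0.634 in SA2Q+gRNA. It rested on 6 to 56 fragments a library, with the 56 in the library with even counts and at most 33 elsewhere. Its low values of 0.154 and 0.157 FPKM came from SA2Q and SA1+gRNA. The windows before the 3 starts are shown because neighbouring genes on 1 strand differed so widely in level (GRCh38.p14, plus strand, chr2:176092471-176092720 for HOXD13, chr2:176099545-176099794 for HOXD12 and chr2:176107030-176107279 for HOXD11).
HOXD13: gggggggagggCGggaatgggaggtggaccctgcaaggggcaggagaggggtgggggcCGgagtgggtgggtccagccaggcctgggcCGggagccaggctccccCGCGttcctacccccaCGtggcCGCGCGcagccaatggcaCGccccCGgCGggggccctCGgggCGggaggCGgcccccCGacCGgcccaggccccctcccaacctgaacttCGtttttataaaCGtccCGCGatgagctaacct
HOXD12: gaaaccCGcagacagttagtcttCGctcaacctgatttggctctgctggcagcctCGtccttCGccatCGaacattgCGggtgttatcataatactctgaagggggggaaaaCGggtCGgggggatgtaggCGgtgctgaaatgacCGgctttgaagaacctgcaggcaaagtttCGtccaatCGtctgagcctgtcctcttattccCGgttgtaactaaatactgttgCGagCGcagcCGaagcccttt
HOXD11: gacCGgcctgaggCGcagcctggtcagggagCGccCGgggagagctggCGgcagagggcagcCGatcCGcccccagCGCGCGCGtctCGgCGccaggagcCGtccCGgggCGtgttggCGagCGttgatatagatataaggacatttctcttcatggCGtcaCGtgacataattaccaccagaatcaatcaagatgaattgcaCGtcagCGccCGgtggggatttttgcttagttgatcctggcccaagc
They held 21, 16 and 23 CG pairs, ratios of 0.618, 0.907 and 0.976. TATAAA was in the HOXD13 window and in neither of the others.

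HOXD10, of the lumbar region and hind limb, was at 16.7 and 20.8 in ctrl, 16.1 and 16.1 in SA1+gRNA, 14.3 and 13.5 in SA2+gRNA, 19.0 and 18.3 in SA1Q, 20.4 and 20.4 in SA1Q+gRNA, 15.9 and 15.6 in SA2Q and 17.0 and 16.0 in SA2Q+gRNA. Both SA2+gRNA values were under all others, and the SA1Q line (18.3 to 20.4 FPKM) lay above the SA2Q line (15.6 to 17.0 FPKM). HOXD9, a paralog of HOXA9, was at 5.19 and 5.85 in ctrl, 3.03 and 4.65 in SA1+gRNA, 3.13 and 2.9 in SA2+gRNA, 3.99 and 4.13 in SA1Q, 7.0 and 4.7 in SA1Q+gRNA, 3.48 and 3.42 in SA2Q and 4.68 and 3.79 in SA2Q+gRNA. It had the widest spread of the expressed HOX genes, a coefficient of variation of 27.2% and a ratio of highest to lowest library of 2.41. Its ctrl pair lay above all libraries of SA2+gRNA, SA1+gRNA, SA1Q, SA2Q and SA2Q+gRNA. HOXD8, of the trunk, was at 5.0 and 4.95 in ctrl, 4.64 and 4.76 in SA1+gRNA, 5.0 and 4.88 in SA2+gRNA, 5.16 and 5.28 in SA1Q, 6.01 and 5.41 in SA1Q+gRNA, 4.65 and 4.72 in SA2Q and 4.94 and 5.42 in SA2Q+gRNA.

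HOXD4, of the neck region, was at 2.08 and 4.03 in ctrl, 2.42 and 2.42 in SA1+gRNA, 2.18 and 2.22 in SA2+gRNA, 2.76 and 2.4 in SA1Q, 3.33 and 3.09 in SA1Q+gRNA, 2.44 and 1.98 in SA2Q and 2.28 and 2.87 in SA2Q+gRNA. Its highest library was ctrl replicate 2, and the other ctrl library was at 2.08 FPKM. HOXD3, also of the neck region, was at 2.45 and 2.63 in ctrl, 2.05 and 2.03 in SA1+gRNA, 2.58 and 2.03 in SA2+gRNA, 2.45 and 2.2 in SA1Q, 2.55 and 2.38 in SA1Q+gRNA, 2.56 and 1.98 in SA2Q and 2.07 and 2.01 in SA2Q+gRNA. HOXD1, a gene of pain-sensing neurons, was at 0.677 and 0.681 in ctrl, 0.747 and 0.736 in SA1+gRNA, 0.662 and 0.641 in SA2+gRNA, 0.536 and 0.597 in SA1Q, 0.508 and 0.59 in SA1Q+gRNA, 0.688 and 0.516 in SA2Q and 0.816 and 0.522 in SA2Q+gRNA. It rested on 39 to 176 fragments a library, with the 176 in the library with even counts and at most 101 elsewhere. Its SA2Q+gRNA pair alone spanned 0.522 to 0.816 FPKM.

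**Figure D2:**
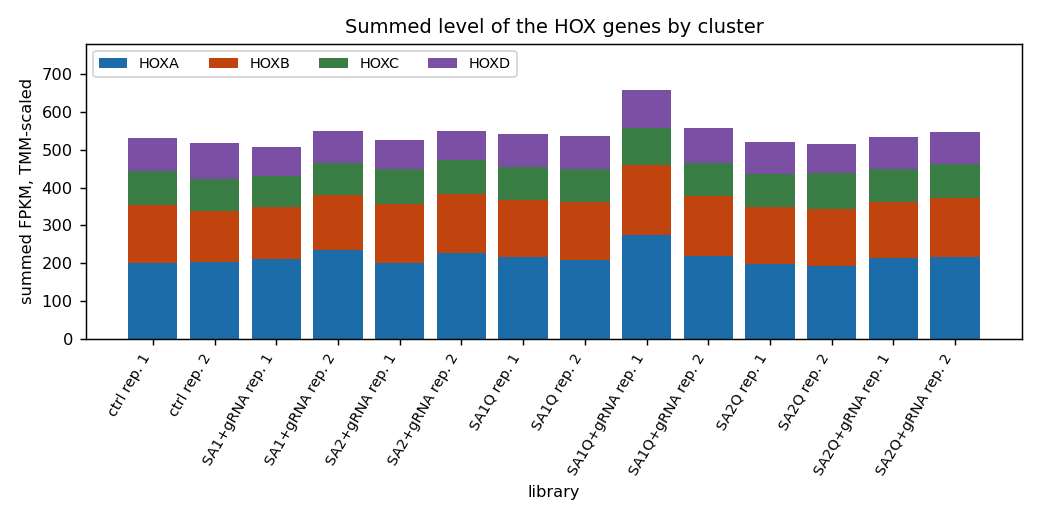
Summed FPKM (TMM-scaled) of the HOX genes in each of the 14 libraries, stacked by cluster. SA1Q+gRNA replicate 1 stands highest at 658 FPKM over the expressed members, and the HOXA cluster is the largest block in every library.

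The fine order of the genes was not settled, since of the 38 pairs of neighbours in the order of mean FPKM 7 kept their order in all 14 libraries. Spearman's rho between libraries over the 39 genes was 0.976 to 0.997 in 91 pairs of libraries, a description across genes of 1 cell line whose levels range from near zero to that of HOXA9, so high values say little about the fine order. Of the 35 expressed genes, 33 kept within a 2-fold range over all libraries, as did 95.8% of all tested genes at or above 1 FPKM. The exceptions were HOXD9 and HOXD4. The coefficient of variation over 14 libraries had a median of 9.74% for the expressed HOX genes and 8.92% for all expressed genes. Without the 2 libraries that stood apart it was 8.07% and 7.7%. The cluster shares of the summed FPKM moved little, from 37.3% to 42.5% for HOXA, 26.3% to 30.1% for HOXB, 14.7% to 18.1% for HOXC and 13.8% to 18.3% for HOXD. Within pairs of replicates the SD of the log2 level had a median of 0.108 for expressed HOX genes and 0.112 for all expressed genes, and between the 7 group means it was 0.121 and 0.097. The spread between groups was above that within pairs in 19 of 35 HOX genes, and in 39.1% of all expressed genes. These spreads are not alike, since a mean of 2 libraries varies less than a single library. With no group difference the spread between means would be expected to lie under that within pairs.

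One library rather than a group held the upper end. SA1Q+gRNA replicate 1 was the highest library for 19 of the 35 expressed HOX genes, and 32 of them lay above their mean there. Its median log2 ratio to the mean was 0.21 for HOX genes and 0.00 for all expressed genes. In the other replicate of that group 22 of 35 lay above their mean, with a median of 0.04. In replicate 1 the ratio of all expressed genes to their mean went with GC content (rho 0.63) and with transcript size (rho -0.36), and in ctrl replicate 1 these were 0.46 and -0.40. Such trends were not particular to these libraries: the ratio went with GC content the other way in SA1Q replicate 1 (rho -0.70) and SA1+gRNA replicate 1 (rho -0.69), and SA1Q replicate 1 enters the guide comparison in SA1Q and the line comparison. HOX transcripts had a median GC content of 55.7% against 50% for all tested genes, and a median size of 1980 against 2920 nucleotides. The part of GC content and size in the HOX values was not tested beyond the fits with an offset for them, given below.

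**Figure D3:**
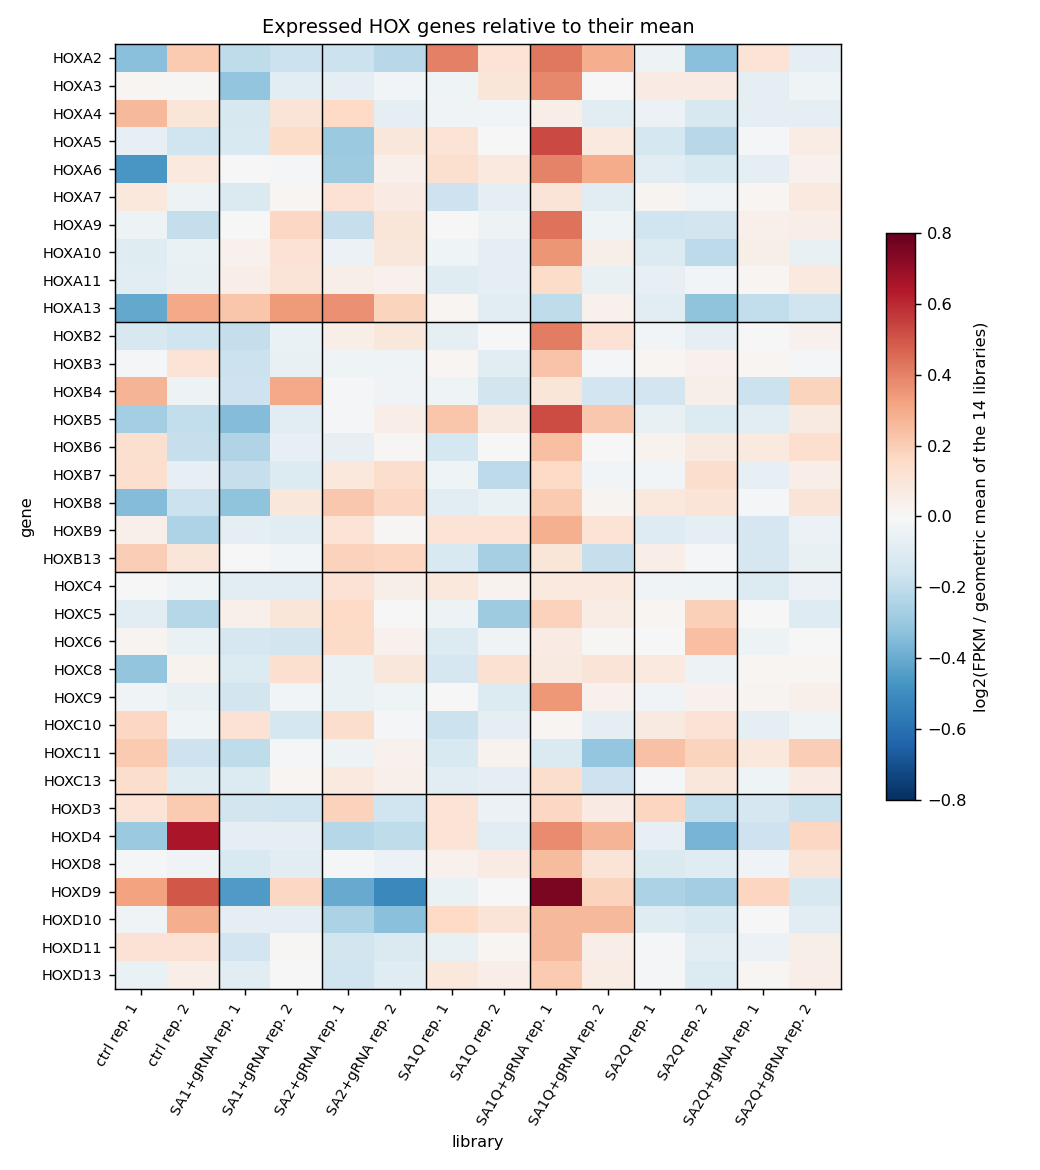
Log2 ratio of 34 of the 35 expressed HOX genes (rows, by cluster) to its geometric mean over the 14 libraries (columns, by group); red is above and blue below the mean. The column of SA1Q+gRNA replicate 1 is red in most rows, and HOXD9 and HOXD4 show the widest range.

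Whether any HOX gene differed over the 7 groups was asked with edgeR's quasi-likelihood test, adjusted over all 16418 tested genes, of which 37 were HOX genes (HOXB1 and HOXC12 fell below the count filter). With an adjusted p under 0.05 as the threshold, 0 of 37 were called, where 1.57% of all genes were (258). At an unadjusted p under 0.05 there were 8 of 37, 21.6%, against 16.8% of all genes. The smallest adjusted p-values were those of HOXD10 (0.059), HOXD9 (0.09) and HOXB5 (0.097). DESeq2 called these 3 and HOXB2, 4 of 37, where it called 8.23% of all genes. Without the 2 libraries that stood apart edgeR called 6 of 37, where it called 11.0% of all genes: HOXA13, HOXB9, HOXC11, HOXD4, HOXD9 and HOXD10. Without SA1Q+gRNA replicate 2 it called 7 (6.29% of all genes), without ctrl replicate 1 it called 2 (2.65%), and without ctrl replicate 2 it called 2 (2.78%).

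The largest set of libraries to compare was the SA1Q line against the SA2Q line, 4 against 4. The difference itself uses no ctrl library. Its spread is shared over all 14 libraries, so leaving out a ctrl library can change its adjusted p. HOXD10 was at 19.5 ± 1.07 FPKM in the SA1Q line and 16.1 ± 0.627 in the SA2Q line (SD, n = 4 each), a log2 difference of 0.27 (SE 0.07, adjusted p = 0.052, edgeR). HOXB9 differed by 0.24 (SE 0.07, adjusted p = 0.069) and HOXB5 by 0.31 (SE 0.09, adjusted p = 0.084), both toward the SA1Q line. HOXC11 differed by -0.30 (SE 0.09, adjusted p = 0.094), toward the SA2Q line. None of 37 HOX genes was called (0 of 37), where 2.75% of all genes were (452), and 11 of 37 had an unadjusted p under 0.05, 29.7% against 16.8% of all genes. Their values did not overlap between the lines for 7 of 37, 18.9%, against 11.9% of all genes. Of these 5 were higher in the SA1Q line (5.63% of all genes), HOXA6, HOXB5, HOXB9, HOXC4 and HOXD10, and 2 were lower (6.22% of all genes), HOXC11 among them. DESeq2 called HOXB5, HOXB9, HOXC11 and HOXD10 (4.88% of all genes). With SA1Q+gRNA replicate 1 and ctrl replicate 1 left out, edgeR called HOXA6, HOXB9, HOXC11 and HOXD10, 4 of 37 against 11.8% of all genes. Without SA1Q+gRNA replicate 2 it called HOXA5, HOXA10, HOXB5 and HOXB9, against 3.24% of all genes. Every interval of the 37 differences lay within 2-fold (95%), as did 89.3% of those of all genes. By cluster, 8 of 9 HOXD genes and 8 of 11 HOXA genes lay above 0, with 4 of 9 HOXB and 3 of 8 HOXC genes.

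**Figure D4:**
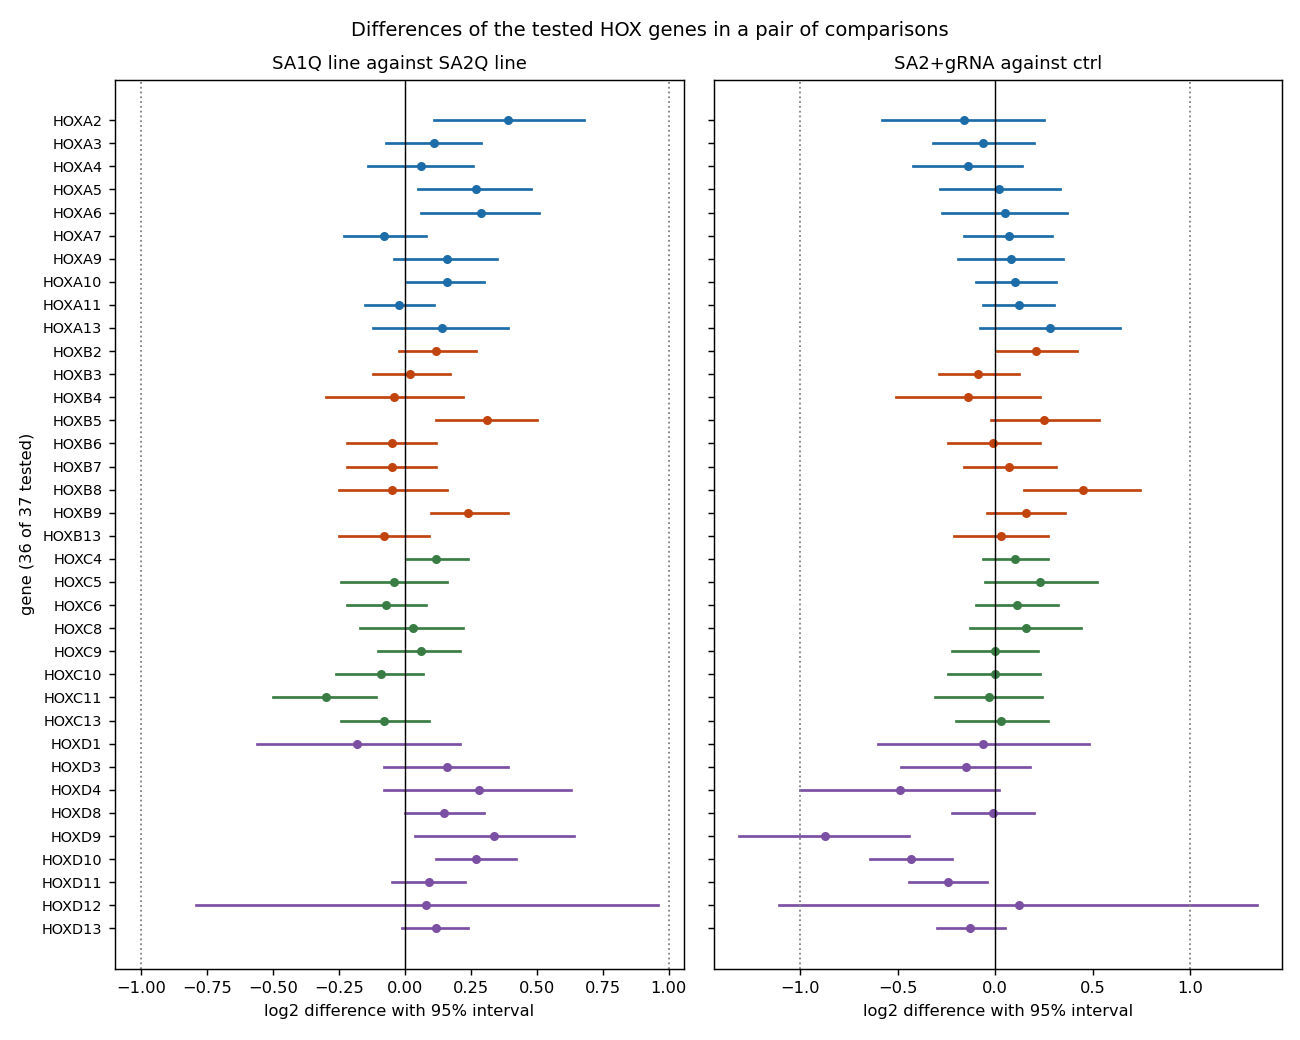
Log2 difference of 36 of the 37 tested HOX genes with its 95% interval, for the SA1Q line against the SA2Q line (left, 4 against 4 libraries) and SA2+gRNA against ctrl (right, 2 against 2); colours are clusters and dotted lines a 2-fold difference. On the left all intervals stay within 2-fold, and on the right HOXD9 and HOXD12 reach beyond it.

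SA1Q, SA2Q, SA1+gRNA and SA2+gRNA were each compared with the same 2 ctrl libraries, so these comparisons share them and are not independent of each other. In each of them 0 of 37 HOX genes were called, where the share of all genes called was 2.8% for SA1Q, 0.0853% for SA2Q, 0.0426% for SA1+gRNA and 0.104% for SA2+gRNA. At an unadjusted p under 0.05 there were 4, 3, 2 and 5 of the 37 in that order, against 21.2%, 8.86%, 10.7% and 10.2% of all genes. HOXD9 was the lowest of the 37 differences in each, at -0.44 in SA1Q, -0.68 in SA2Q, -0.51 in SA1+gRNA and -0.87 in SA2+gRNA on the log2 scale (SE 0.20, 0.20, 0.19 and 0.20). Its smallest adjusted p was 0.13, in SA2+gRNA, where it was at 3.02 ± 0.164 FPKM against 5.52 ± 0.461 in ctrl (SD, n = 2 each). HOXD10 in SA2+gRNA was at 13.9 ± 0.564 against 18.7 ± 2.94 FPKM (log2 difference -0.43, SE 0.1, adjusted p = 0.13). That difference moved with the ctrl library used, to -0.58 without ctrl replicate 1 (adjusted p = 0.034, edgeR) and to -0.26 without ctrl replicate 2 (adjusted p = 0.23). HOXB8 in SA2+gRNA was at 5.73 ± 0.148 against 4.2 ± 0.362 FPKM (0.45, SE 0.14, adjusted p = 0.26). HOXB5 in SA1Q was at 8.02 ± 0.576 against 6.16 ± 0.232 FPKM (0.38, SE 0.13, adjusted p = 0.11, edgeR). HOXB13 in SA1Q lay the other way, at 3.28 ± 0.234 against 4.16 ± 0.208 FPKM (-0.34, SE 0.11, adjusted p = 0.11, edgeR).

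By cluster, the log2 difference was above 0 in SA1Q, SA2Q, SA1+gRNA and SA2+gRNA for 6, 4, 7 and 8 of 11 HOXA genes, 4, 6, 4 and 6 of 9 HOXB genes, 3, 7, 2 and 6 of 8 HOXC genes and 2, 0, 1 and 1 of 9 HOXD genes. The medians of the HOXD genes were -0.13, -0.18, -0.18 and -0.15, against 0.00 in each for all genes. No HOXD gene was called (0 of 9), no test was made of a cluster as a whole, and some lay close to ctrl, such as HOXD10 in SA1Q and HOXD8 in SA2+gRNA (-0.01 each). Since the 4 comparisons share the ctrl pair, a high ctrl value counts in all of them. Of all 37 HOX genes 15, 17, 14 and 21 lay above 0, with medians of -0.03, -0.03, -0.07 and 0.03. DESeq2 called 0, 0, 0 and 2 of the 37, the last being HOXD9 and HOXD10 in SA2+gRNA. It called 6.48%, 0.554%, 0.615% and 0.804% of all genes. Without both libraries that stood apart, ctrl rests on replicate 2 alone, a single library assumed to vary like the others. Calls were then 2, 4, 2 and 4 of the 37, against 7.32%, 3.42%, 2.3% and 2.84% of all genes. HOXD4, called in each of these, rests on that ctrl library, where it was at 4.03 FPKM against 2.08 in replicate 1. HOXD10, called in 3 of them, was likewise at 20.8 FPKM there against 16.7. The other genes called were HOXD9, HOXB9 and HOXA13. In ctrl replicates 1 and 2 HOXD9 was at 5.19 and 5.85 FPKM, HOXB9 at 51.2 and 41.9, and HOXA13 at 6.79 and 11.1. Without ctrl replicate 1 alone, HOXD10 was called in SA2+gRNA (0.0955% of all genes), and without ctrl replicate 2 HOXA6 in SA1Q (4.88% of all genes). The 95% intervals stayed within 2-fold for 36, 35, 36 and 35 of the 37, and for 82.6% to 84.5% of all genes. HOXD12 passed that limit in all 4 comparisons, HOXD9 in SA2Q and SA2+gRNA.

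**Figure D5:**
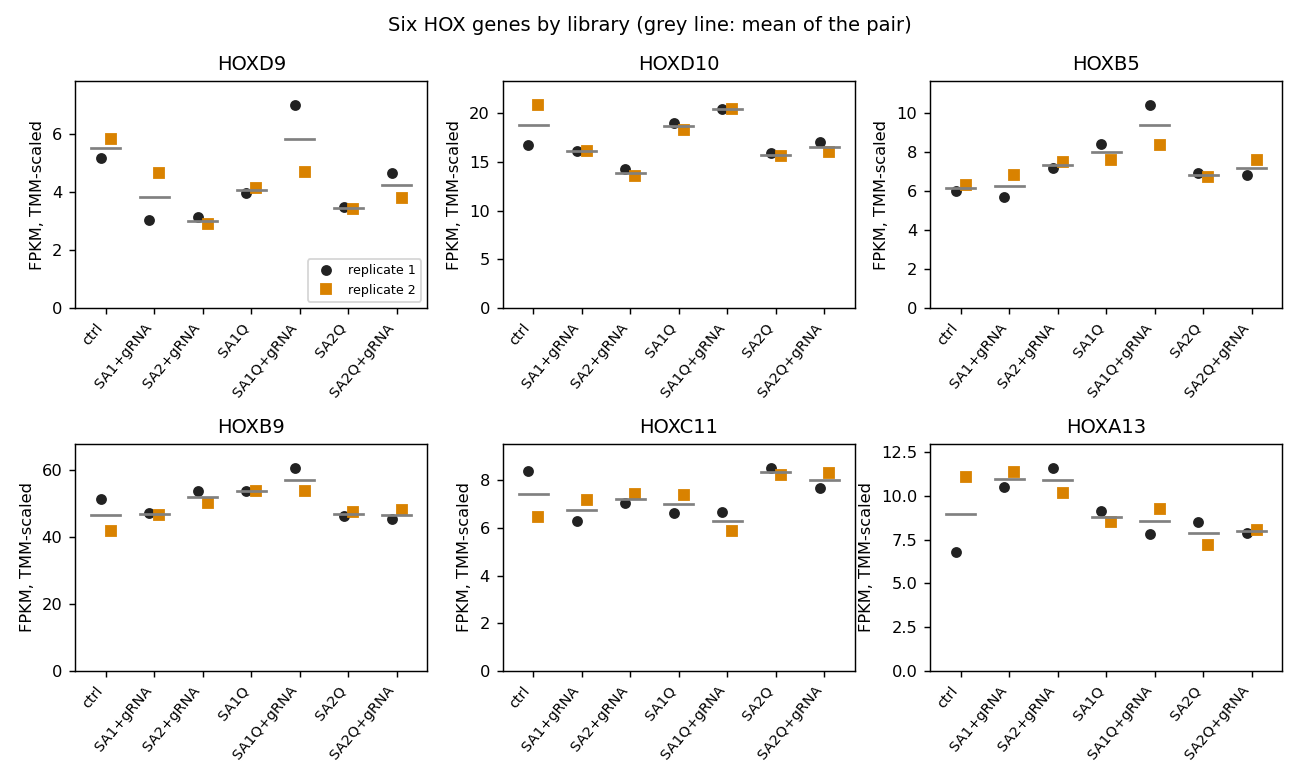
FPKM (TMM-scaled) of HOXD9, HOXD10, HOXB5, HOXB9, HOXC11 and HOXA13 in replicate 1 (circles) and replicate 2 (squares) of each group; grey lines are means of the pairs. HOXA13 shows a ctrl pair that spans most of the range of the groups, HOXD9 shows wide pairs in SA1+gRNA and SA1Q+gRNA, and the SA1Q and SA2Q lines separate in HOXD10, HOXB5, HOXB9 and HOXC11.

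The guide was compared within a line. For SA1Q+gRNA against SA1Q 0 of 37 HOX genes were called, where 0% of all genes were, by edgeR and by DESeq2. At an unadjusted p under 0.05 edgeR gave 4 of 37 (10.8%) against 12.2% of all genes. The log2 difference was above 0 for 33 of 37, with a median of 0.13 against 0.01 for all genes. HOXD9 (5.85 ± 1.63 against 4.06 ± 0.0984 FPKM; log2 difference 0.52, SE 0.2, adjusted p = 0.39) and HOXB2 (37.3 ± 5.37 against 30.2 ± 0.986 FPKM; 0.30, SE 0.1, adjusted p = 0.39) were examples (SD, n = 2 each). This count moved with 1 library. Without SA1Q+gRNA replicate 1, 27 of 37 lay above 0 with a median of 0.05 and 0 were called. Without SA1Q+gRNA replicate 2, 33 of 37 lay above 0 with a median of 0.22 and 6 were called (HOXA5, HOXA9, HOXA10, HOXB2, HOXC9 and HOXD9), where 12.6% of all genes were. With an offset for transcript size and GC content, 28 of 37 lay above 0 with a median of 0.04.

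For SA2Q+gRNA against SA2Q 0 of 37 HOX genes were called, where 0% of all genes were, by both tools. At an unadjusted p under 0.05 edgeR gave 0 of 37 against 1.77% of all genes. Of the 37, 22 lay above 0 with a median of 0.05. The difference between the guide's effect in SA1Q and in SA2Q was tested as an interaction and was called for 0 of 37 HOX genes and 0 of 16418 genes (1 and 930 at an unadjusted p under 0.05; smallest adjusted p of a HOX gene 0.71, edgeR).

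Antisense and long non-coding RNAs of the clusters were expressed beside them. Of 19 listed, 13 were in the files and 12 were expressed. HOXA10-AS was at 57.4 ± 5.1 FPKM and HOXB-AS3 at 44.8 ± 3.28 (SD, n = 14), levels of the order of the highest HOX genes. HOTAIR, transcribed against HOXC11, was at 7.51 ± 1.01 FPKM, and HOTTIP, at the posterior end of HOXA, at 0.308 ± 0.0442. HOXA5, HOXA6, HOXA7, HOXA10, HOXB2, HOXB3, HOXB5, HOXB6, HOXC11, HOXC13 and HOXD1 overlap such a transcript on the other strand. The library kit keeps strand, but the sources used here do not say whether counting used it. The counts of these genes and of the transcripts opposite them, HOXA10-AS and HOXB-AS3 included, are therefore uncertain. None of the 13 was called by edgeR in any of the 8 tests (0 of 13), where 0% to 2.8% of all genes were. At an unadjusted p under 0.05 there were 0 to 2 of them, against 1.77% to 21.2% of all genes by test. The 2 of 13 were in SA1Q+gRNA against SA1Q (12.2% of all genes). HOTAIR (5.46 to 8.95 FPKM) and HOXC-AS1 (3.18 to 6.38 FPKM) had the smallest p over the 7 groups, with adjusted p = 0.22 and 0.34 (edgeR).

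HOX cofactors were expressed, with 8 of 9 TALE genes at or above 1 FPKM. PBX2 was at 38.6 ± 2.12 FPKM, PBX3 at 8.74 ± 0.654 and MEIS2 at 7.83 ± 0.724 (SD, n = 14). In each of the 8 tests edgeR called 0 of 9, where it called 0% to 2.8% of all genes. At an unadjusted p under 0.05 there were 0 to 2 of 9, against 1.77% to 21.2% of all genes by test. The count of 2 came in several tests, such as SA2Q against ctrl (8.86% of all genes). MEIS3 (adjusted p = 0.24, edgeR) and MEIS1 (0.26) had the smallest p over the groups. Of 12 genes of Polycomb repressive complex 2, which methylates histone H3 at silent HOX genes, 0 were called in any test by edgeR. At an unadjusted p under 0.05 there were 0 to 4 of 12. The 4 were in SA1Q against ctrl (21.2% of all genes), and 3 were in SA1Q+gRNA against SA1Q (12.2% of all genes). The enzyme of this complex, EZH2, was at 44.8 ± 2.56 FPKM, and RBBP7 (adjusted p = 0.25, edgeR) and EED (0.34) had the smallest p over the groups. Of 16 Trithorax and demethylase genes 0 were called by edgeR. At an unadjusted p under 0.05 there were 0 to 2 of 16, with 2 in SA1+gRNA against ctrl (10.7% of all genes) and in SA1Q+gRNA against SA1Q (12.2%). DOT1L (adjusted p = 0.36, edgeR) and WDR5 (0.37) had the smallest p over the groups.

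Polycomb repressive complex 1 had 2 of 19 genes called higher and 0 lower in SA1Q against ctrl, where 2.8% of all genes were called, with a median of -0.02. At an unadjusted p under 0.05 there were 7 of 19, against 21.2% of all genes, and they lay in both directions, with PCGF2 (-0.34), CBX7 (-0.43) and CBX8 (-0.29) under ctrl. BMI1, a core subunit, was at 39.7 and 37.3 FPKM in SA1Q against 29.1 and 31.1 in ctrl (log2 change 0.35, SE 0.09, adjusted p = 0.045, edgeR). PHC1, a second subunit, was at 12.1 and 13.3 against 9.77 and 10.1 FPKM (0.35, SE 0.08, adjusted p = 0.04). BMI1 was also called higher in the SA1Q line than in the SA2Q line (0.25, SE 0.06, adjusted p = 0.045), 1 of 19, where 2.75% of all genes were called. Retinoid and caudal inducers of HOX genes had 0 of 12 called higher and 1 lower in SA1Q against ctrl, RARG, a retinoic acid receptor gene, at 4.9 and 4.57 against 7.37 and 6.32 FPKM (-0.53, SE 0.11, adjusted p = 0.027). In the SA1Q line against the SA2Q line 0 of 12 were called higher and 2 lower, RARG (-0.34, SE 0.08, adjusted p = 0.037) and CRABP2, a retinoic acid binding protein gene (-0.77, SE 0.16, adjusted p = 0.019). CRABP2 ran from 24.4 to 35.9 FPKM in the SA1Q line and from 45.4 to 67.4 in the SA2Q line. In the other 6 tests 0 genes of either list were called. By unadjusted p under 0.05 (edgeR) the retinoid and caudal list had 5 of 12 over the 7 groups and 4 of 12 between the lines. Polycomb repressive complex 1 had 5 of 19 and 6 of 19 there, against 16.8% of all genes in both tests. Over the 8 tests these counts ran from 0 to 5 of 12 and from 0 to 7 of 19, against 1.77% to 21.2% of all genes.

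Genes beside the clusters (15 tested of 18), other homeobox genes (7 of 10) and genes patterned with HOX10 and HOX11 in the embryonic kidney (12 of 13) had 0 called by edgeR in each of the 8 tests. Of all genes 0% to 2.8% were called in these tests. At an unadjusted p under 0.05 there were 0 to 5, 0 to 2 and 0 to 3 of them, against 1.77% to 21.2% of all genes by test. The 5 of 15 flank genes were in SA2+gRNA against ctrl (10.2% of all genes), with a list median of 0.13. In SA1+gRNA against ctrl (10.7% of all genes) there were 2 of 7 other homeobox genes and 3 of 12 of the kidney list. Of the kidney list SIX2, of nephron progenitors, ran from 2.32 to 3.79 FPKM (adjusted p = 0.13 over the 7 groups), and PAX2 from 0.559 to 1.27 (0.2). SKAP1 (adjusted p = 0.2) and CBX5 (0.35) had the smallest p of the flanks, and GBX1 (0.31) and MEOX1 (0.46) of the other homeobox genes. Among cell type markers, KRT8 and KRT19 fell in SA1Q against ctrl (-0.48, SE 0.09, adjusted p = 0.017, and -0.46, SE 0.08, adjusted p = 0.0084, edgeR). They were 2 of 11 markers of 293 cells called there, where 2.8% of all genes were, and the list median was -0.05. At an unadjusted p under 0.05 there were 6 of the 11, against 21.2% of all genes. Both keratin genes lay lower in the SA1Q line than in the SA2Q line (-0.36 and -0.35). There 3 of 11 were called, against 2.75% of all genes. CDH2 (0.41), of the same list, was called higher in that line comparison. CD68 (-0.74) and LCP1 (-0.40), 2 of 4 tested blood markers, were called lower in it, as was KRT17 (-0.79), the only tested gene of its list. COL1A1 (-0.64), 1 of 7 tested fibroblast markers, was called lower in SA1Q against ctrl. NEFL, 1 of 11, was called higher in SA2+gRNA against ctrl, where 0.104% of all genes were called. Over the 7 groups KRT19 (1 of 11) and CD68 and LCP1 (2 of 4) were called, where 1.57% of all genes were. The part of these marker differences in the HOX values of the same comparisons was not tested.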

How the data were processed

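Poly(A) RNA of 14 libraries (7 groups of 2) was sequenced paired-end with a stranded kit, per the labels' protocols. Trim Galore, STAR 2.4.2a and hg19 are named in the submitters' processing notes, with no role. What tool counted fragments, whether by strand, and how it treated shared ones is not given in the sources used here. As named in the columns per the file headers, the authors deposited for each of 46830 RefSeq transcripts a fragment count, the FPM signal (the count scaled to the library) and the FPKM. Counts were used for the levels and tests, FPM to choose the transcript of each gene, and the authors' FPKM in 1 alternative. Coordinates are on hg19 except those of promoter windows (RefSeq, GRCh38.p14).

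Of the accessions, 98.6% were named with a RefSeq table (GRCh38.p14, names only) and a GENCODE table. Those left unnamed took a mean of 0.81% of the counts; they and transcripts under 200 nucleotides were left out. For each gene the transcript of highest mean FPM was kept, giving 22410 genes holding 93.3% to 95.0% of a library. For all 39 HOX genes this was also the longest transcript.

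The tests used edgeR 4.0.16 (R 4.3.3; TMM, filterByExpr with a minimum count of 10, quasi-likelihood test, two-sided) over all 14 libraries with no covariate. Benjamini-Hochberg adjustment ran over 16418 genes in each of 8 tests, with calls under 0.05. The fit had 7 residual degrees of freedom and a common biological coefficient of variation of 8.7%, and simulated counts were used to test the fit. Levels are TMM-scaled CPM per kilobase. With 2 libraries a group, the tests rest on spread shared over groups. Nothing in the labels says that the 2 libraries of a group came from separate cultures, so the p-values measure only the spread between these libraries, which may be technical. Alternatives were DESeq2 1.42.0, other scaling, no filter, a replicate block, offsets for size and for size with GC content, the longest transcript, halved counts of the library with even counts, and leaving libraries out. A HOX gene and a blood marker are not reported here by name, though they enter the counts and sums. The rule for named genes gave every HOX gene, with per-library values for the expressed ones, and, of each list, the called genes or the 2 with the smallest p over the 7 groups. The HOX genes and the gene lists were chosen with earlier results of these data known.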

Additional observations from a re-analysis of the deposited data

How the results depend on the processing

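The count of 35 expressed HOX genes was 36 at a threshold of 0.5 FPKM, 34 at 2 FPKM, and 35 with the authors' FPKM. It was also 35 with the longest transcript and without any 1 library, but neither could have changed it. The longest transcript was the one already used for all 39 HOX genes. No HOX gene crossed 1 FPKM in any library, with HOXA2 at 1.32 FPKM or more and HOXD1 at 0.816 or less. The count of HOX genes called, 0 of 37 in each of the 8 tests, moved in 7 of them. The count of all genes called in the same fit is in parentheses. Over the 7 groups it was 4 with DESeq2 (1352), 3 with no filter on low counts (716), 2 with a size offset (641), 6 without both libraries that stood apart (1831), 5 with the size and GC offset, chosen after seeing the data (1271), and 0 to 7 when each library was left out in turn. In SA1Q against ctrl it was 1 with the size offset (920), 2 without both libraries (1218), 3 with the size and GC offset (873), and 0 to 1 leaving out each library. In SA2Q against ctrl it was 4 (569) and in SA1+gRNA against ctrl 2 (382) without both libraries. In SA2+gRNA against ctrl it was 2 with DESeq2 (132), 1 with no filter (63), 4 without both libraries (473), 2 with the size and GC offset (190), and 0 to 1 leaving out each library. In SA1Q+gRNA against SA1Q it was 0 to 6 leaving out each library, with 6 without SA1Q+gRNA replicate 2 (2115). For the SA1Q line against the SA2Q line it was 4 with DESeq2 (802), 1 with RLE factors (449), 2 with no filter (534), 4 with the size offset (771), 4 without both libraries (1959), 7 with the size and GC offset (1452), and 0 to 4 leaving out each library. In the fits as reported, all genes called were 258 over the 7 groups, 460, 14, 7 and 17 for SA1Q, SA2Q, SA1+gRNA and SA2+gRNA against ctrl, 0 for SA1Q+gRNA against SA1Q and 452 between the lines. The cause of these moves was not tested. In the line comparison directions held in each of these fits for the genes nearest the threshold. Differences were 0.25 to 0.30 for HOXD10, 0.20 to 0.29 for HOXB9, 0.23 to 0.38 for HOXB5 and -0.35 to -0.26 for HOXC11. On all 14 libraries their adjusted p ran from 0.0052 (HOXB9, size and GC offset) to 0.13 (HOXC11, replicate block, both edgeR). Directions also held in SA2+gRNA against ctrl for HOXD9 (-0.96 to -0.79) and HOXD10 (-0.58 without ctrl replicate 1 to -0.26 without ctrl replicate 2). These genes were picked for their small p, and their values did not overlap between the sides compared. Leaving out a library therefore could not turn the sign, so the held directions are no test of the differences. With the replicate number as a block, 0 HOX genes were called in each of the 8 tests. Same-numbered libraries did not deviate together in most pairs of groups. Of 21 pairs, 2 had a correlation over 0.1 (range -0.14 to 0.44), so the numbers were not taken to pair the samples. The libraries furthest from 0 on the first principal component were all replicate 1. They were ctrl (-17.1) and SA1Q+gRNA (-24.4) on 1 side, and SA1+gRNA (11.8) and SA1Q (11.7) on the other. Sets that deviate in opposite directions can give low correlations, so this check cannot decide whether the number marks a batch. HOXB1, HOXC12 and HOXD12 had too few fragments for a change under 2-fold to be seen.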
